A study of Mus musculus with 20 samples.

Results

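The Ms4a genes code for small membrane proteins of the tetraspan type, and 5 of them are described here by symbol: Ms4a7, Ms4a6b, Ms4a6c, Ms4a6d and Ms4a4c. The list was chosen by measured values as well as by symbol, since earlier results of these data were known. In these, Ms4a7 was higher in brain monocytes than in microglia. That contrast is therefore given as a description, and calls of the 5 genes in it are no support for a difference. All 5 symbols occurred in both tables, which together hold 19522 gene symbols, and all 5 passed the filter on low values in both. RNA came from mouse brain 3 days after permanent photothrombosis, in which light on an injected dye closes blood vessels of the cortex to model stroke.

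The 20 libraries fell into 6 groups in 2 tables that the authors normalized separately, so no level is compared between tables. The GFP table held GFP-positive monocytes and GFP-negative microglia of Cxcr4-GFP reporter mice, with 4 libraries per group. Each animal or pool gave both populations, with 1 pair of libraries from 2 mice, 1 pair from a pool of 5 mice and 2 pairs from single mice. The Cre table held 3 libraries each of KO monocytes, control monocytes, KO microglia and control microglia. KO mice were Cxcr4 conditional knockouts of the Cxcr4CreER line, and controls were Cxcr4CreER mice called wild type by the submitters. In both genotypes the monocytes were TdT-positive and the microglia TdT-negative, so the fluorescent signal and the cell population coincide, and their parts in a difference cannot be told apart. The Cre recombinase of this line is driven by Cxcr4, and no label says that the gene was deleted in the TdT-negative microglia of KO mice. Of the Cre animals, 2 KO and 2 control mice gave libraries of both populations. The labels used here give no tamoxifen schedule, age, sex or sort marker, and they do not explain the tag BrKo, which every GFP title has.

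Ms4a proteins cross the membrane several times and associate with immune receptors in the same membrane. The best known relatives are Ms4a1, the B cell antigen CD20, and Ms4a2, the beta chain of the high-affinity IgE receptor of mast cells. In the mouse brain, Ms4a7 serves to mark macrophages of the brain borders, and those that arise from monocytes, apart from resident microglia, and variants near the human MS4A genes are linked to the amount of soluble TREM2 in cerebrospinal fluid. The genes form a cluster on mouse chromosome 19, where 21 of the 22 protein-coding genes from the first to the last Ms4a gene of the RefSeq annotation carry an Ms4a symbol. In its order, Ms4a7 is followed by Ms4a4a, Ms4a4c, Ms4a4b and Ms4a6c, and, after the predicted gene Gm8369, by Ms4a6b, Ms4a4d and Ms4a6d.

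RefSeq promoter windows, the 250 bases before the start site in mouse build GRCm38.p6, were found for 4 of the 5 genes, and 3 are shown because Ms4a6b and Ms4a6c share sequence here that Ms4a7 does not. Capitals mark matches to AGGAAGT, a motif bound by ETS factors such as PU.1, or to GAAANNGAA, an interferon response element, on either strand. The windows lie at chr19:11469118-11469367 (plus strand) for Ms4a6c, chr19:11518309-11518558 (plus strand) for Ms4a6b and chr19:11336147-11336396 (minus strand) for the first of the 2 start sites of Ms4a7.
Ms4a6c: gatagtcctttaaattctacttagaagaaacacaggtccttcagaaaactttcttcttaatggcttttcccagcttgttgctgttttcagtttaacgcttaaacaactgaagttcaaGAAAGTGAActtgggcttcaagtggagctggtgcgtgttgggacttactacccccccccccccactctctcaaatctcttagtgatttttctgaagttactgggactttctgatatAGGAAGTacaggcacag
Ms4a6b: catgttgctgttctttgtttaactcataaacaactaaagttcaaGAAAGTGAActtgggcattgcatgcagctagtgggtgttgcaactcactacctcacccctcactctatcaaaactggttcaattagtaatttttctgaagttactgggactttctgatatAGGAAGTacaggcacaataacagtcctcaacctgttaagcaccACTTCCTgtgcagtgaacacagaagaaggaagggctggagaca
Ms4a7: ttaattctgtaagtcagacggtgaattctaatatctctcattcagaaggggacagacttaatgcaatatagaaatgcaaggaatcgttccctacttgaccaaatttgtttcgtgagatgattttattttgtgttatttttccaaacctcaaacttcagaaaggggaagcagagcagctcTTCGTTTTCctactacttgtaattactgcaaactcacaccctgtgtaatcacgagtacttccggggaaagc

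The windows of Ms4a6b and Ms4a6c were identical at 152 of 183 aligned bases (83.1%), whereas the other pairs among these windows and that of Ms4a4c had an identity of 50.4% to 54.7%. The longest run common to the Ms4a6b and Ms4a6c windows was 48 bases, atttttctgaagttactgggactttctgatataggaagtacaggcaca, and it holds an AGGAAGT match in both. That motif, searched on both strands, was found in 7.69% of 32851 RefSeq promoter windows of the same length. It occurred 2 times before Ms4a6b, 1 time before Ms4a6c, and in neither the Ms4a7 nor the Ms4a4c windows. GAAANNGAA was found in 7.13% of all windows, with 1 match each before Ms4a6b, Ms4a6c and both Ms4a7 start sites and none before Ms4a4c. TGANTCA, the AP-1 motif, was found in 6.75% of windows and here in 1, that of the other Ms4a7 start site. These matches describe the letters only.

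The paralogs also share transcript sequence, which bears on how reads are assigned. Of all 31-base words in the GENCODE vM21 transcripts of Ms4a6c, 21.9% also occurred in another gene, and 13.9% occurred in Ms4a6b. For Ms4a4c the shared portion was 17.1%, of which the largest part, 227 of 1747 words, lay in Ms4a4b. Ms4a6d shared 8.11% of its words, Ms4a6b 7.84% and Ms4a7 1.22%. Values of Ms4a6b, Ms4a6c, Ms4a6d and Ms4a4c are therefore uncertain to the extent that the authors' counting split reads among copies.

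The libraries held 0.617 to 14.9 M reads in the GFP table and 9.73 to 56.8 M in the Cre table. Values are normalized counts, that is reads divided by a size factor per library, and 1 read is worth 0.104 to 2.58 normalized counts in GFP libraries and 0.375 to 2.19 in Cre libraries. In 3 GFP libraries few genes were detected, 5598 in microglia 3, 3489 in microglia 4 and 3029 in monocytes 3, while the other 5 had 10422 to 14498. A summed level of 6 monocyte markers was 2973 to 5592 in GFP monocytes against 1.25 to 295 in GFP microglia, and a sum of 6 microglia markers was 533 to 1743 in GFP monocytes against 10426 to 17103 in GFP microglia. In Cre libraries the monocyte sum was 54321 to 104619 in KO and 58182 to 84872 in control monocytes, against 446 to 2145 in KO and 798 to 2893 in control microglia. Neutrophil markers were also present, with sums of 33041 to 60085 in KO and 15079 to 32963 in control monocytes, against 0 to 2136 in KO and 0.703 to 154 in control microglia. Most of the monocyte sums was S100a8, at means of 37979 in KO and 20235 in control monocytes. The other neutrophil markers averaged 128 (Ly6g) to 3123 (Retnlg) in KO and 6.3 (Ly6g) to 1903 (Trem1) in control monocytes. Cxcr4 stood at 784, 1010 and 536 normalized counts in KO monocytes 1 to 3, against 1183, 1332 and 1166 in control monocytes 1 to 3. These groups did not overlap, but the log2 difference of -0.70 (SE 1.10) was not called by limma (adjusted p = 0.962). The SE rests on a spread shared by all 4 Cre groups, microglia included, so it is not that of monocytes alone. Cxcr4 was at 0.912, 0 and 0 in KO microglia and at 0, 7.88 and 0 in control microglia, too low to show a deletion. In the GFP table it was at 2788, 2037, 1266 and 3017 in monocytes and at 10.3, 9.04, 0 and 0 in microglia. Values per gene cannot tell which exons of Cxcr4 were removed.

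All 5 genes were higher in mean level in monocytes than in microglia in both tables, and all were detected in every Cre microglia library. Ms4a7, the macrophage marker, had 321, 352, 123 and 269 normalized counts in GFP monocytes 1 to 4 and 2.58, 2.15, 2.50 and 0 in GFP microglia 1 to 4. The microglia values amount to 8 reads over 4 libraries, and every monocyte library lay above every microglia library. In the Cre table Ms4a7 had 33493, 40782 and 44482.5 normalized counts in KO monocytes and 38354.5, 39720 and 42379.5 in control monocytes. It had 658, 850 and 378 in KO microglia and 612, 240 and 824 in control microglia. The mean in monocytes was 147-fold that in microglia in the GFP table, 63.0-fold in KO mice and 71.9-fold in controls. Since these are bulk samples, fewer cells of a type and less RNA per cell cannot be told apart in any of these values.

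**Figure D1:**
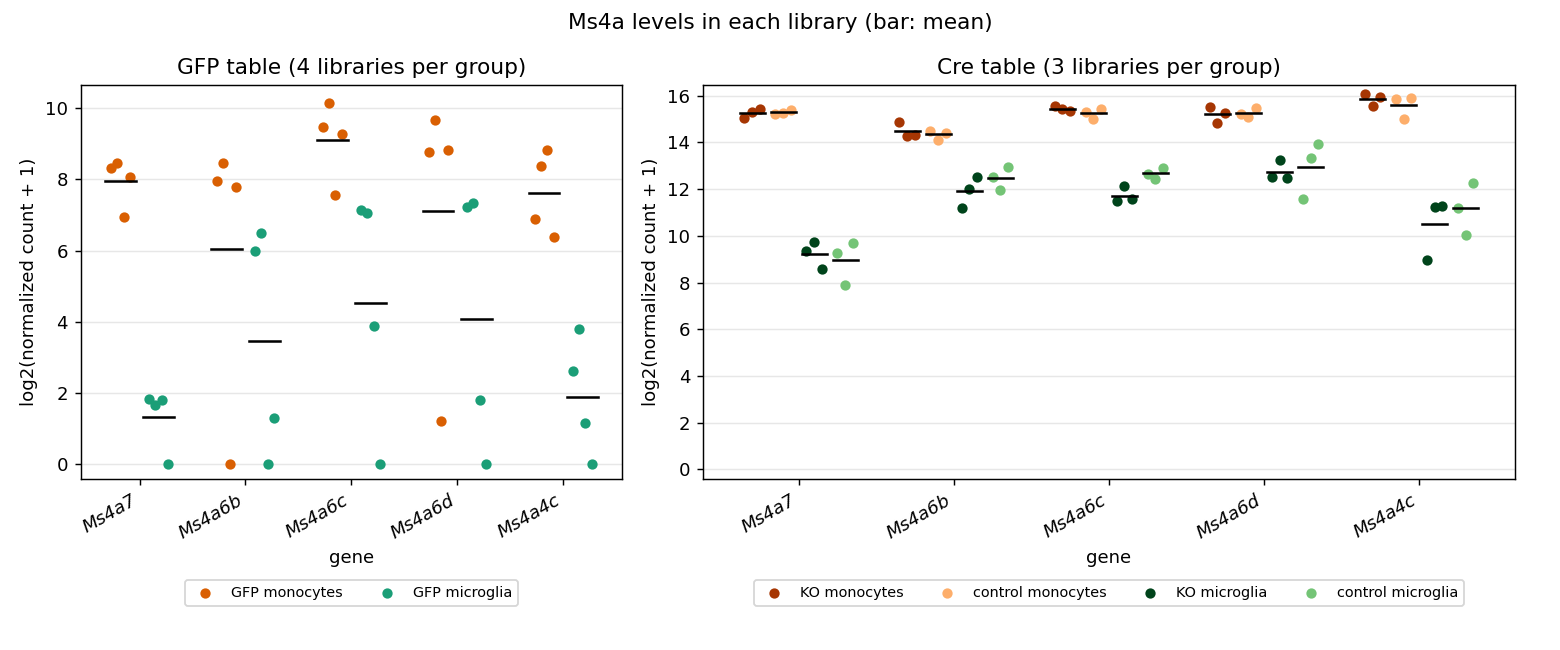
Normalized counts of the 5 Ms4a genes on a log2(value + 1) axis, with a point per library and a bar at the mean, in the GFP table (left) and the Cre table (right). Monocyte libraries lie above microglia libraries for all 5 genes in the Cre table, and GFP microglia 4 is at 0 for 4 of the 5 genes.

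Ms4a4c showed the next widest gap between the populations. It had 117, 331, 453 and 82.4 normalized counts in GFP monocytes, against 5.17, 12.9, 1.25 and 0 in GFP microglia. Its values were 68169, 48512 and 62630 in KO monocytes, 58919, 32656 and 61968 in control monocytes, 500, 2416.5 and 2502.5 in KO microglia and 2365, 1058.5 and 4899 in control microglia. No microglia library reached the level of a monocyte library in either table. The ratio of means was 50.9 in the GFP table, 33.1 in KO mice and 18.4 in controls.

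Ms4a6c, Ms4a6b and Ms4a6d, which are close paralogs, had at least 2326 normalized counts in every Cre microglia library, whereas GFP microglia 3 and 4 held few or no reads of them. Ms4a6c had 706, 1130, 189 and 618 normalized counts in GFP monocytes and 140, 131, 13.7 and 0 in GFP microglia. Its values were 48465.5, 43647 and 41826 in KO monocytes, 40661, 33191 and 44127 in control monocytes, 2848, 4436 and 3051.5 in KO microglia and 6500, 5534 and 7770 in control microglia. The populations did not overlap in any of the 3 comparisons, with ratios of means of 9.29 in the GFP table, 12.96 in KO mice and 5.96 in controls.

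Ms4a6b had 246, 352, 0 and 221 normalized counts in GFP monocytes, against 62.0, 89.9, 0 and 1.48 in GFP microglia. It was thus listed at 0 in GFP monocytes 3, a library with few detected genes, and the GFP groups overlapped. In the Cre table its values were 30414, 19694 and 20453 in KO monocytes, 23247, 17716 and 21998.5 in control monocytes, 2326, 4168.5 and 5798 in KO microglia and 5799.5, 4037 and 7836 in control microglia. All Cre monocyte libraries lay above all Cre microglia libraries, at ratios of 5.74 in KO mice and 3.56 in controls.

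Ms4a6d, whose mouse protein forms a complex with Vsig4 that restrains the Nlrp3 inflammasome, had 439, 811, 1.32 and 448 normalized counts in GFP monocytes and 150, 160, 2.50 and 0 in GFP microglia. The low value again belongs to GFP monocytes 3, where it is 1 read. Cre values were 46637, 29319 and 39515 in KO monocytes, 38294, 35100.5 and 45451 in control monocytes, 5916, 9664 and 5631 in KO microglia and 3034, 10436 and 15611 in control microglia. Control microglia spanned a wider range than KO microglia, and both stayed below every monocyte library.

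On the log2(value + 1) scale of the fit, which understates the change of low genes, the GFP difference (monocytes minus microglia, n = 4 each) was 6.63 (SE 1.78) for Ms4a7, 5.72 (SE 1.80) for Ms4a4c and 4.60 (SE 1.37) for Ms4a6c. It was 3.02 (SE 1.95) for Ms4a6d and 2.60 (SE 2.13) for Ms4a6b. When each GFP library was left out, Ms4a7 ran from 6.19 to 6.96, Ms4a4c from 5.08 to 6.35 and Ms4a6c from 3.09 to 5.47. Ms4a6d moved to 1.66 without GFP microglia 4 and to 4.99 without GFP monocytes 3, and Ms4a6b to 1.45 without GFP microglia 3 and to 4.62 without GFP monocytes 3. In KO mice (n = 3 each) the differences were 6.04 (SE 0.42), 5.35 (SE 0.63) and 3.72 (SE 0.21) for Ms4a7, Ms4a4c and Ms4a6c, and 2.46 (SE 0.48) and 2.59 (SE 0.34) for Ms4a6d and Ms4a6b. In controls (n = 3 each) they were 6.34 (SE 0.42), 4.42 (SE 0.63), 2.58 (SE 0.21), 2.32 (SE 0.48) and 1.88 (SE 0.34) in the same order of genes. A gene was called where its limma p, adjusted by Benjamini-Hochberg over all tested genes, was under 0.05. Of all genes tested, 0.908% were called in the GFP table, 6.83% in KO mice and 6.52% in controls, and of the 5 listed genes 0, 5 and 5 were called. Groups without overlap, with monocytes higher, were seen for 3 of 5 genes in the GFP table, 5 of 5 in KO mice and 5 of 5 in controls, beside 5.22%, 12.7% and 9.6% of all genes. Because the list was drawn up with this contrast known, nothing is read from these counts. Without the 3 GFP libraries of few detected genes, 5 of the 5 were called in the GFP table, beside 15.5% of all genes, with log2 differences of 6.54 for Ms4a7, 4.00 for Ms4a4c, 2.54 for Ms4a6c, 1.83 for Ms4a6b and 1.80 for Ms4a6d. Nothing is read from this count either. Ms4a7 passed the GFP filter only through the monocyte libraries, where it is high, and Ms4a4c nearly so. The median log2 difference of the 5 genes was 4.60 in the GFP table, 3.72 in KO mice and 2.58 in controls, and that of all genes tested was 0.51, -0.25 and -0.24.

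Within the same animal or pool, the difference can be read without comparing mice. Over 8 pairs of libraries, Ms4a7 was higher in the monocytes of 8, by a log2 difference of 5.15 to 8.08. Ms4a6c and Ms4a4c were also higher in 8 of 8 pairs, by 2.33 to 9.27 and by 3.66 to 7.66. Ms4a6b was higher in 7 pairs and at 0 in both libraries of GFP pair 3, and its largest difference was 6.48. Ms4a6d was higher in 7 pairs, and in GFP pair 3, where both populations held few reads of it, the difference was -0.59. In the 4 Cre pairs, whose libraries are deeper, the differences spanned 5.30 to 6.87 for Ms4a7, 3.66 to 4.82 for Ms4a4c, 2.50 to 3.78 for Ms4a6c, 1.54 to 3.66 for Ms4a6d and 1.49 to 2.87 for Ms4a6b.

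**Figure D2:**
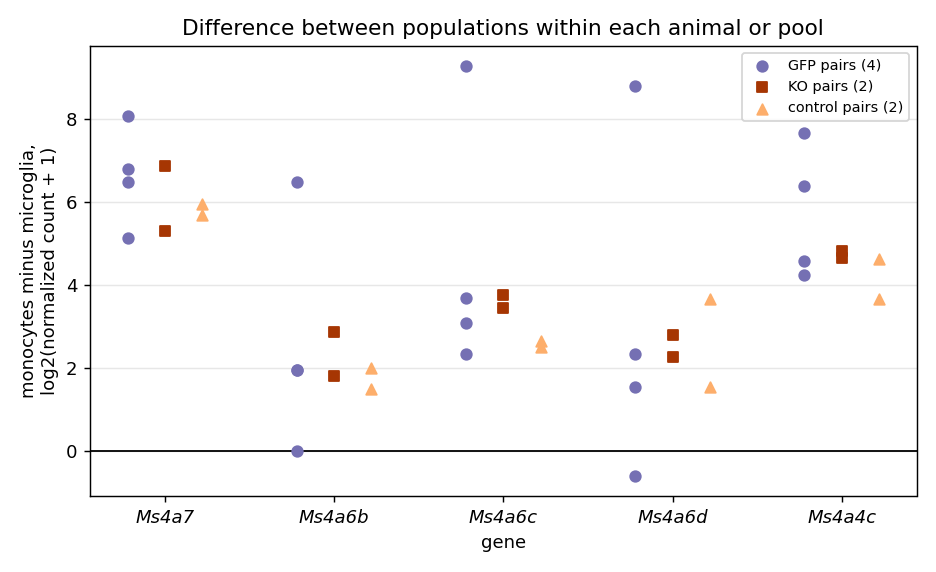
Difference between monocytes and microglia of the same animal or pool, as log2(normalized count + 1), with a point per pair for 4 GFP, 2 KO and 2 control pairs. All 8 points lie above 0 for Ms4a7, Ms4a6c and Ms4a4c, and GFP pair 3 lies at 0 for Ms4a6b and at -0.59 for Ms4a6d.

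The Cre libraries were used to ask whether deletion of Cxcr4, the receptor of the chemokine Cxcl12, went with a change of these genes. In monocytes, none of the 5 was called, beside 0.0402% of all genes (5 of 12432, all higher), and KO and control libraries overlapped for each, whereas 4.67% of all genes were higher and 4.15% lower without overlap. Ms4a7 averaged 39586 ± 5591 normalized counts in KO monocytes and 40151 ± 2047 in control monocytes (SD, n = 3 each), a log2 difference of -0.03 with a 95% interval of -0.95 to 0.89 (limma, adjusted p = 1). Ms4a6c averaged 44646 ± 3430 in KO and 39326.5 ± 5589 in control monocytes, a difference of 0.19 with an interval of -0.28 to 0.66 (limma, adjusted p = 0.933). The differences of Ms4a6b, Ms4a6d and Ms4a4c were 0.15 (interval -0.60 to 0.89), -0.06 (-1.10 to 0.98) and 0.27 (-1.11 to 1.64). For Ms4a6c the interval leaves room for a change of less than 1 log2 unit either way, and for Ms4a4c and Ms4a6d it does not exclude a difference of 1 unit. All 4 Cre groups share a spread per gene in this fit. The intervals of monocytes thus also carry the spread of microglia, and the reverse.

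In microglia, only Ms4a6c of the 5 genes had no overlap between KO and control libraries, and limma did not call it after adjustment. Its level was 2848, 4436 and 3051.5 normalized counts in KO microglia (mean 3445 ± 864, SD, n = 3) and 6500, 5534 and 7770 in control microglia (mean 6601 ± 1122, SD, n = 3). Each KO library lay below each control library, and the mean in control microglia was 1.92-fold that in KO microglia. The log2 difference was -0.95 (SE 0.21, 95% interval -1.42 to -0.48), and it was not called by limma after adjustment over all genes (adjusted p = 0.508). DESeq2 on the recovered reads called it (log2 difference -0.94, adjusted p = 0.0134), whereas over all settings tried the adjusted p ranged from 0.0134 to 1. An exact two-sided permutation test over the 3 and 3 libraries gave p = 0.1, the smallest value that this design allows. Among all genes, 4.22% were lower in KO than in control microglia without overlap and 0.0322% were called (4 of 12432, 1 higher and 3 lower), against 1 and 0 of these 5.

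The other 4 genes overlapped between KO and control microglia, and no test compared them with Ms4a6c. The intervals of Ms4a6b, Ms4a6d and Ms4a4c include the log2 difference of -0.95 of Ms4a6c. Ms4a6b, which shares sequence with Ms4a6c, averaged 4097.5 ± 1737 in KO and 5891 ± 1901 in control microglia (SD, n = 3 each), a log2 difference of -0.57 (interval -1.32 to 0.18) with overlapping libraries. Ms4a6d averaged 7070 ± 2251 in KO and 9694 ± 6321 in control microglia, a difference of -0.21 (-1.25 to 0.83). Ms4a4c averaged 1806 ± 1132 in KO and 2774 ± 1953 in control microglia, a difference of -0.67 (-2.05 to 0.70), and its lowest library was KO microglia 1. Ms4a7 averaged 629 ± 237 in KO and 559 ± 296 in control microglia, a difference of 0.27 (-0.65 to 1.19). The limma adjusted p was 1 for each of these 4.

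Markers of other cell types were measured in the same microglia libraries. Border-associated macrophage markers summed to 1127 to 1731 in KO and 1458 to 3546 in control microglia, with none of 6 tested markers called. Of that list Pf4, a platelet and macrophage chemokine, averaged 177 in KO and 635 in control microglia without overlap. Pf4 was higher still in the monocytes, at means of 5250 in KO and 6856 in control mice. In microglia the control mean also exceeded the KO mean for F13a1 (3.15-fold), Cd163 (2.26-fold), Folr2 (1.70-fold), Cbr2 (1.44-fold) and Mrc1 (1.26-fold). Libraries of the 2 genotypes overlapped for each of these. Lyve1 alone of the same list went the other way, at a low level, with means of 8.11 in KO and 2.63 in control microglia. Monocyte markers summed to 446 to 2145 in KO and 798 to 2893 in control microglia, with none of 6 called. The markers did not go one way: Ly6c2, which defines classical mouse monocytes, was at 0 in all KO microglia and at 393, 0 and 1.71 in control microglia, whereas Ccr2, their chemokine receptor, was at 72.0, 119.8 and 81.0 in KO microglia and at 22.5, 13.8 and 5.98 in control microglia, without overlap. Itga4, an integrin chain, averaged 84.3 in KO and 70.9 in control microglia. The rest of the list was lower in mean in KO microglia. Plac8 averaged 1106 in KO and 1310 in control microglia, Cd44 187 and 195, and Chil3 0 and 0.234. The part of other cells in the Ms4a6c difference was not tested.

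**Figure D3:**
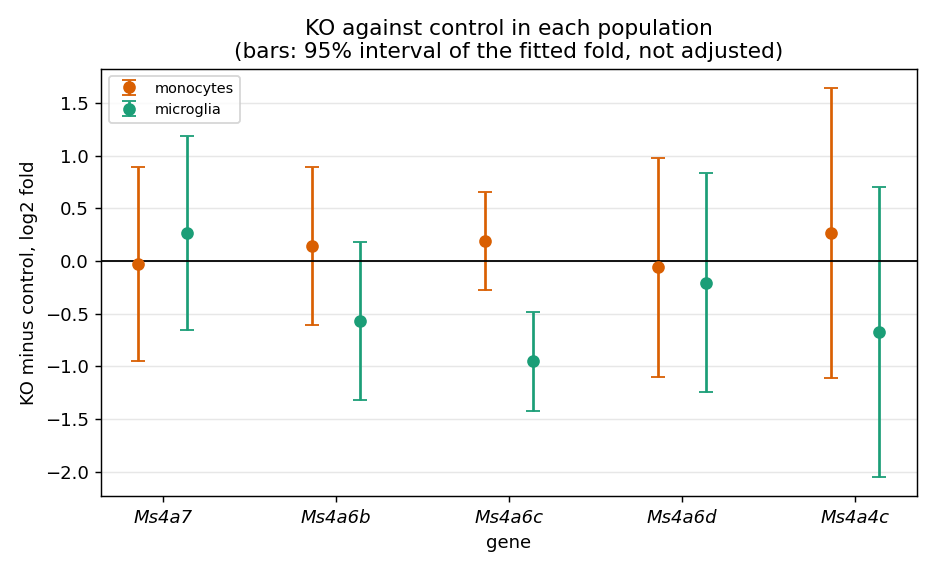
Fitted log2 difference between KO and control libraries for each gene, in monocytes and in microglia, with 95% intervals that are not adjusted for multiple tests. The interval of Ms4a6c in microglia, -1.42 to -0.48, is the 1 of 10 that does not include 0.

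Whether the KO difference itself differed between populations was tested as a genotype-by-population term. For Ms4a6c the term was 1.14 (SE 0.30, interval 0.48 to 1.81), and it was not called after adjustment (limma adjusted p = 0.791), with 0% of all genes called and 590 of 12432 at an unadjusted p under 0.05. DESeq2 called it (1.12, adjusted p = 0.0425), and over all settings tried the adjusted p was 0.0425 to 0.998. The terms of the other genes were 0.94 (SE 0.89) for Ms4a4c, 0.71 (SE 0.49) for Ms4a6b, 0.15 (SE 0.67) for Ms4a6d and -0.30 (SE 0.60) for Ms4a7. None of these 4 was called by limma, edgeR or DESeq2.

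The order of the 4 Cre groups was the same at its main step for all 5 genes, with both monocyte groups above both microglia groups. KO and control monocytes were neighbours with overlapping libraries for each gene, at ratios of means of at most 1.17. KO and control microglia also overlapped for Ms4a7, Ms4a6b, Ms4a6d and Ms4a4c, and Ms4a6c was the gene for which they did not.

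Across the 12 Cre libraries, each gene centred on its own mean, the profiles of Ms4a6b and Ms4a6c lay closest to each other among the 5, with a root mean square difference of 0.57 in log2 units. Ms4a6b and Ms4a7 lay farthest apart, at 2.08. Outside the family, the gene nearest to Ms4a6c was Lgals1, coding for the lectin galectin-1, at 0.26, followed by Wfdc17 at 0.27 and Tmsb10 at 0.32. Nearest to Ms4a6b was Ifitm3, an interferon-induced membrane protein, at 0.28, then Plin2 at 0.34 and Cstb at 0.37. Ms4a7 lay nearest to Cd74, the invariant chain of MHC class II, at 0.66, with Crip1 and H2-Ab1 at 0.80 each. For Ms4a4c these were Plac8, a monocyte marker, at 0.52, Mndal at 0.69 and Cd74 at 0.78. For Ms4a6d they were Anxa4 at 0.32, Osbpl8 at 0.44 and Il1b at 0.45. The libraries of both populations enter these distances, so the gap between populations is part of them, and they are given as a description.

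Beyond the 5 genes, 10 other Ms4a symbols and the related channel genes Tmem176a and Tmem176b were listed, and 7 of these 12 passed the filter in the Cre table and 3 in the GFP table. Genes called higher in monocytes were 4 of the 7 in KO mice and 4 of the 7 in controls, beside 3.85% and 3.46% of all genes, and 1 of the 3 in the GFP table, beside 0.415%. None was called lower. The called genes, Ms4a4a, Ms4a14, Ms4a8a and Ms4a4b, passed the filter only through the monocyte libraries, where they are high, so they had to differ, and nothing is read from these counts.

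Ms4a4a, whose human counterpart associates with the receptor Dectin-1, had 311, 444, 181 and 221 normalized counts in GFP monocytes and 0, 2.58, 0 and 0 in GFP microglia. It had 2675, 3599 and 4627 in KO monocytes and 2658.5, 1955 and 2403 in control monocytes, against 104, 9.36 and 0 in KO microglia and 0, 182 and 0 in control microglia. It was called higher in all 3 comparisons, by 7.64 (SE 1.87, limma adjusted p = 0.0422) in the GFP table, 8.43 (SE 1.95, adjusted p = 0.0229) in KO mice and 8.68 (SE 1.95, adjusted p = 0.0202) in controls. Since Ms4a4a passed the filter only through the monocyte libraries, these calls are no support for a difference. The call was lost in the GFP table with the animal or pool as a replicate block (adjusted p = 0.0508) and with no filter (adjusted p = 0.0502). It was lost with edgeR in KO mice (adjusted p = 0.119) and controls (adjusted p = 0.2), with DESeq2 in controls (adjusted p = 0.112) and in a fit of the control groups alone (adjusted p = 0.083). It was also lost without any 1 of GFP monocytes 1, 2 or 4 or GFP microglia 3 (limma adjusted p up to 0.214), of KO monocytes 1, 2 or 3 or KO microglia 2 or 3 (up to 0.0886), and of control monocytes 1 or 3 or control microglia 1 or 3 (up to 0.076).

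Ms4a14 was at 0 in all 3 control microglia libraries and at 1091, 2576 and 1431 in control monocytes, a mean at least 2044-fold higher when the microglia are set to a floor of 3 reads for the group. It had 502, 1366 and 928 normalized counts in KO monocytes and 24.6, 1.87 and 0 in KO microglia. Ms4a8a, which in mice is induced in alternatively activated macrophages, was at 977, 542 and 1163 in KO monocytes, against 0, 3.74 and 0 in KO microglia, and at 208, 1288 and 272 in control monocytes, against 0 in each control microglia library (at least 709-fold). In the GFP table Ms4a8a had 10.7, 31.01, 0 and 21.8 in monocytes and 0 in each microglia library. In the Cre table both were called in KO mice (limma adjusted p = 0.00276 for Ms4a14 and 0.000715 for Ms4a8a) and in controls (0.000334 and 0.000833). They were also called by edgeR and DESeq2. Both passed the filter only through the monocyte libraries, so these calls are no support for a difference.

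Ms4a4b, known from mouse T cells, had 2387, 922 and 791 normalized counts in KO monocytes and 8.21, 0 and 17.2 in KO microglia, and 928, 186.5 and 1392.5 in control monocytes and 30.9, 0 and 1.71 in control microglia. It was called in KO mice (log2 difference 7.77, SE 1.502, limma adjusted p = 0.00909) and in controls (7.14, SE 1.502, adjusted p = 0.0142). Ms4a4b too passed the Cre filter only through the monocyte libraries, so these calls are no support for a difference. In controls the call was lost with edgeR (adjusted p = 0.0646), in a fit of the control groups alone (limma adjusted p = 0.0773) and without control monocytes 1 or 3 (limma adjusted p = 0.0525 and 0.0544). In the GFP table it did not pass the filter, and the populations overlapped, with 3.13, 0, 63.4 and 123.6 in GFP monocytes and 0, 0.430, 0 and 108 in GFP microglia. Of 5 listed T cell markers, 3 occurred in the Cre table, with sums of 2.67 to 304 in KO and 11.05 to 48.3 in control monocytes. The part of T cells in the Ms4a4b values was not tested.

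Tmem176a and Tmem176b went the other way in their means. Tmem176a averaged 716 ± 455 in KO monocytes against 1777 ± 308 in KO microglia, and 1197 ± 225 in control monocytes against 1759 ± 1279 in control microglia (SD, n = 3 each). Tmem176b averaged 2291 in KO monocytes against 2657 in KO microglia, and 2311 in control monocytes against 2757 in control microglia. Neither was called in any comparison. Ms4a1, the B cell gene, averaged 5.39 to 12.7 normalized counts in the 4 Cre groups and was not called. Ms4a4d, Ms4a5 and Ms4a15 did not pass the filter, and neither did Ms4a13, with 1 read in the GFP table.

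**Figure D4:**
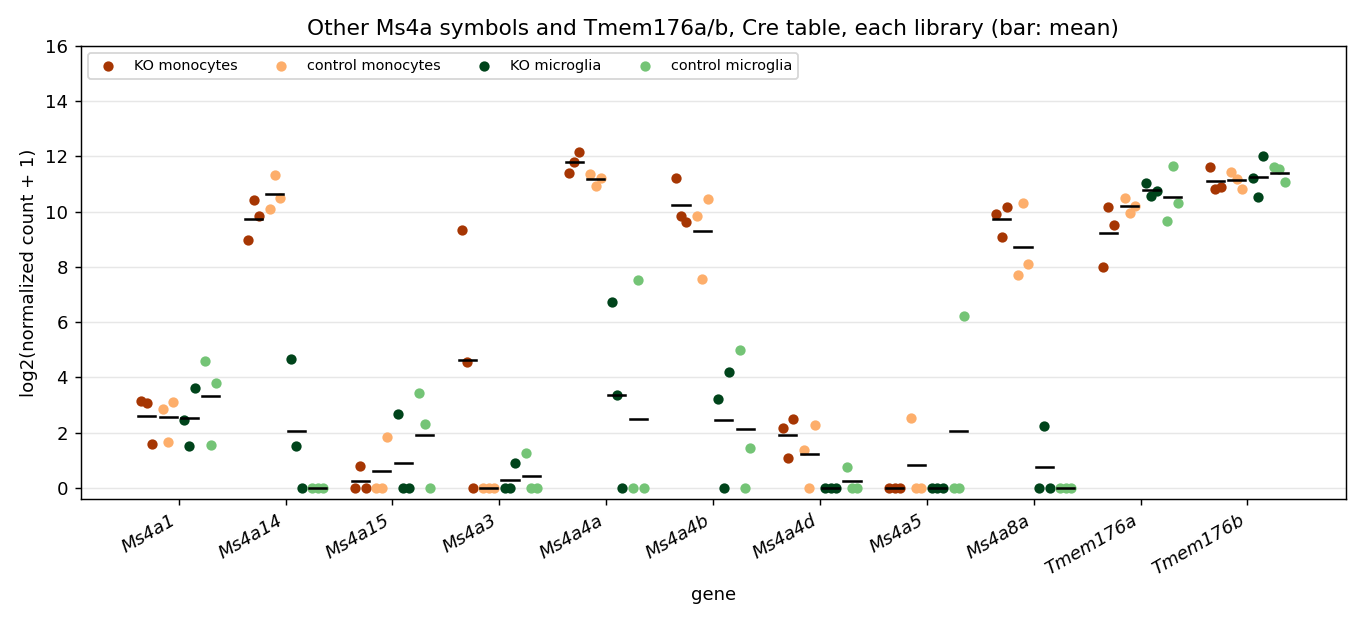
Normalized counts of the other Ms4a symbols and of Tmem176a and Tmem176b in the Cre table on a log2(value + 1) axis, with a point per library and a bar at the mean. Ms4a14, Ms4a4a, Ms4a4b and Ms4a8a are high in both monocyte groups and at or near 0 in most microglia libraries, while Tmem176a and Tmem176b overlap between most groups.

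No gene of this wider list was called between KO and control mice in monocytes or in microglia, nor was any called for the genotype-by-population term. Ms4a4a was higher in KO than in control monocytes without overlap, at a ratio of means of 1.55, as were 4.67% of all genes. Ms4a3, a gene of granulocyte and monocyte progenitors, had 643, 22.5 and 0 normalized counts in KO monocytes and 0 in each control monocyte library. Most of its 801 reads in KO monocytes came from KO monocytes 1, and it did not pass the filter, so it was not tested. Neutrophil marker sums also stood higher in KO than in control monocytes, at 33041 to 60085 against 15079 to 32963, so the ranges almost met. S100a8, a large part of these sums, averaged 37979 in KO and 20235 in control monocytes. Each of the 6 markers overlapped between the genotypes, and none was called. The part of neutrophils in the Ms4a3 values was not tested.

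Partners of family members known from the literature were listed as a last group of 9 genes, of which 8 were tested in the Cre table and 6 in the GFP table. Higher in monocytes were 4 of 8 in KO mice and 2 of 8 in controls, beside 3.85% and 3.46% of all genes, with none lower, and 0 of 6 were called in the GFP table, beside 0.908% of all genes. This list too was chosen with earlier results of these data known, so nothing is read from these counts. Clec7a, which codes for Dectin-1, was higher by 2.97 (SE 0.43, limma adjusted p = 0.00151) in KO mice and 2.85 (SE 0.43, adjusted p = 0.00203) in controls. Il1b, the inflammasome product, was higher by 2.64 (SE 0.26, adjusted p = 0.000145) in KO mice and 2.63 (SE 0.26, adjusted p = 0.000139) in controls, again by limma. Fcer1g, the common Fc receptor gamma chain, was called in KO mice (1.02, SE 0.19, limma adjusted p = 0.00869), but not with CPM scaling (adjusted p = 0.0831). Tnfrsf18 was the other gene called in KO mice (limma adjusted p = 0.000688), but not with edgeR (adjusted p = 0.071), and it passed the filter only through KO monocytes. Trem2 averaged 2060 in KO monocytes against 5941 in KO microglia, and 2993 in control monocytes against 6071 in control microglia, and it was not called.

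Between genotypes, 1 of the 8 partner genes was called in monocytes, beside 0.0402% of all genes, and 0 of 8 in microglia, beside 0.0322%. Tnfrsf18, coding for the receptor GITR with which Ms4a4b associates in mouse T cells, had 285.5, 128 and 82.2 normalized counts in KO monocytes and 0 in each control monocyte library, a mean at least 138-fold higher. It was also at 0 in all 6 microglia libraries. Tnfrsf18 passed the filter only through the KO monocytes, where it is high, so its limma call (adjusted p = 0.0207) is no support for a difference, and edgeR (adjusted p = 0.708) and DESeq2 (adjusted p = 0.131) did not call it. Ms4a4b itself averaged 1367 ± 886 in KO and 836 ± 608 in control monocytes (SD, n = 3 each) and was not called (limma adjusted p = 0.964). T cell marker sums in KO monocytes ran up to 304, and their part in the Tnfrsf18 values was not tested.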

How the data were processed

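RNA of sorted brain monocytes and microglia was measured in 20 libraries and deposited as 2 tables of values per gene symbol. Per the labels' protocols, total RNA and the Nugen Ovation SoLo kit were used for GFP samples, while Cre samples were prepared by SMART-Seq2 from polyA RNA. The submitters' processing notes name CASAVA 1.82 with DESeq2 for GFP samples, and bcl2fastq 2.20 with kallisto and DESeq2 for Cre samples. The GFP aligner, the genome build and the gene annotation of the tables are not given there. The authors' values are a normalized signal: reads of a gene over a size factor of its library. Each value (100% in both) lay within 0.01 of a whole number of reads once divided by what 1 read is worth, so whole reads were recovered for the alternatives.

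Genes entered the test when 4 GFP or 3 Cre libraries reached a value of 10, which left 7706 and 12432 genes. The main test was limma 3.58.1 under R 4.3.3 with an intensity trend on log2(value + 1), two-sided, with Benjamini-Hochberg adjustment over all tested genes and a threshold of 0.05. The 2 GFP groups and the 4 Cre groups were each fitted together. Alternatives were a pseudocount of 10, no filter, CPM or upper quartile scaling, edgeR 4.0.16, DESeq2 1.42.0, a block for the animal, fits of 2 groups alone and leaving out libraries. The test was checked on simulated counts with the same dispersion for every gene, which did not mimic the GFP libraries of few detected genes. GFP pairs share an animal or pool, with correlations of deviations from the group means of 0.238, 0.198, 0.127 and -0.113; the 4 Cre animals had -0.0555 to 0.00955. No libraries of a group agreed within sampling noise. The 95% intervals of log2 differences are from the spread between libraries in the limma fit, which all 4 Cre groups share. Floors are for counting error only, since reads lacking molecular identifiers may be copies of 1 molecule.

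The members, the gene lists and the rule for named genes (all members, all other Ms4a symbols, called partners, and the 3 nearest profiles per member) were chosen with earlier results of these data known. Promoter windows and chromosome positions are from RefSeq (GRCm38.p6). Fcer1a was in neither table and is not analysed here.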

Additional observations from a re-analysis of the deposited data

Results flagged for a closer look

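Ms4a7 in GFP microglia had 1 library far from the others. GFP microglia 4 was at 0.0 normalized counts, while the other 3 libraries lay between 2.15 and 2.58, and the gap was 0.833 of the whole range. The group held 8 reads of Ms4a7 in all, and a single read equals 1.48 normalized counts in GFP microglia 4. Over the 10 groups of 4 libraries tested this way, chance flags about 1 in 20.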

How the results depend on the processing

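In the GFP table, the number of the 5 genes called between populations was 0 in the limma fit (0.908% of all genes), 3 with a pseudocount of 10, 1 with CPM scaling, 1 with upper quartile scaling, 1 with edgeR and 2 with DESeq2. It was 5 without GFP monocytes 3, GFP microglia 3 and GFP microglia 4 (15.5% of all genes), and 0 to 1 when each library was left out (33 to 129 of all genes). Calls over all genes changed with the setting too, so nothing about the 5 genes is read from these counts. DESeq2 called 1 gene, Ms4a6c, between KO and control microglia and 1, again Ms4a6c, for the genotype-by-population term, against 0 in the limma fit; the cause was not tested. With the replicate block, the animal or pool, the counts were 0 in the GFP table, 5 and 5 between Cre populations and 0 for each genotype comparison, and among the genes named the block changed no call but that of Ms4a4a in the GFP table. A fit of the control groups alone called 4 of 5, without Ms4a6d (adjusted p = 0.0955). Between KO and control monocytes, edgeR gave 0.042 for Ms4a7 and 0.011 for Ms4a6d, the other sign. Leaving out 1 library gave -0.12 to 0.086 for Ms4a7, -0.055 to 0.26 for Ms4a6b, -0.21 to 0.12 for Ms4a6d and -0.030 to 0.43 for Ms4a4c in monocytes. In microglia it gave -0.25 to 0.63 for Ms4a7, -0.90 to 0.28 for Ms4a6d, -1.23 to 0.093 for Ms4a4c and -1.15 to -0.83 for Ms4a6c, and for the term -0.66 to 0.22 for Ms4a7 and -0.34 to 0.84 for Ms4a6d. Population differences of the 5 genes kept their sign in all settings. Calls over all genes ranged from 33 to 1198 (GFP), 482 to 1570 (KO populations), 386 to 1614 (control populations), 0 to 339 (KO against control monocytes), 0 to 109 (microglia) and 0 to 276 (term), the highest with DESeq2 except in the GFP table. CPM scaling moved the median log2 difference of all genes to 0.65 in the GFP table, -0.485 in KO mice and -0.40 in controls, against 0.51, -0.25 and -0.24. Few reads in GFP microglia limit the folds of Ms4a7 and Ms4a4c there. Single libraries also moved called differences: Ms4a6d in controls was 1.62 without control microglia 1 and 2.81 without control microglia 3, Ms4a7 in controls 5.82 without control microglia 2, and Ms4a4c in KO mice 4.59 without KO microglia 1. All alternatives for genes other than the 5 were chosen after seeing the data.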
